A study of Mus musculus with 8 samples.

Results

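A set of secreted growth factors and a receptor that act on blood vessels were followed in RNA pulled down with the ribosomes of mouse Müller cells, the glia that span the retina. The 10 genes were chosen by symbol: Vegfa, Vegfb, Vegfc, Pgf, Fgf1, Fgf2, Adm, Lrg1, Pdgfa and Flt1. Of these 10 genes, 7 were among the 12339 genes of the deposited expression table. Vegfc, Fgf1 and Lrg1 were not in the table, in which the lowest mean over the libraries was 2.0006 FPKM, and were not analysed here. FPKM are fragments scaled to transcript length and to the size of the library, so levels can be set side by side between genes.

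The 8 retina samples were taken at postnatal day 14 of oxygen-induced retinopathy (OIR), a model in which pups are kept in high oxygen and then returned to room air, and vessels grow abnormally. Wild-type retinas (WT) gave 4 samples, and retinas lacking Nrf2 conditionally in Müller cells (Muller-specific Nrf2 cKO, here cKO) gave another 4, each set numbered 1, 3, 4 and 5. RiboTag, the method named in the title of the series, tags a ribosomal protein in cells that express the Cre recombinase. The labels give no Cre driver, no deleted exon, no sex and no litter, and do not say whether a sample was 1 animal or a pool, and a p-value here reflects only how these libraries spread, which may be technical. No sample without oxygen treatment was part of the comparison, so all values are from the diseased retina.

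VEGF-A, made in retinal cells that are short of oxygen, drives vessel growth through the receptor KDR (VEGFR2), with neuropilins as coreceptors. FLT1 (VEGFR1) binds VEGF-A, VEGF-B and placental growth factor (PlGF, the product of Pgf), and its soluble form traps them. FGF2 is a growth factor for endothelial cells and a survival factor for photoreceptors, adrenomedullin (Adm) is a peptide induced by hypoxia that acts through CALCRL and RAMP proteins, and PDGF-A attracts retinal astrocytes, on whose network vessels later grow.

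The 250 bases before the RefSeq start of 3 genes are shown, because these genes differed in how their RNA behaved between the groups: Vegfa was the most abundant and did not pass the test, Vegfb was higher in cKO in each same-numbered pair, and Adm was higher in 1 WT library than in 2 of the 4 cKO libraries. They are on GRCm38.p6, 5′ to 3′ on the strand of the gene, and capitals mark GCGTG and ACGTG (cores of the hypoxia response element) and TGACNNNGC (the core of the antioxidant response element that Nrf2 binds), on either strand.
Vegfa (chr17:46032378-46032627, minus strand): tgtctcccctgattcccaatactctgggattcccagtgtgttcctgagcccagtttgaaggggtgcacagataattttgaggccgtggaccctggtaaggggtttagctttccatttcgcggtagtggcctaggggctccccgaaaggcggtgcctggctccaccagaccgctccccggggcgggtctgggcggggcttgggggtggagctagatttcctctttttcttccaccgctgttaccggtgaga
Vegfb (chr19:6987652-6987901, minus strand): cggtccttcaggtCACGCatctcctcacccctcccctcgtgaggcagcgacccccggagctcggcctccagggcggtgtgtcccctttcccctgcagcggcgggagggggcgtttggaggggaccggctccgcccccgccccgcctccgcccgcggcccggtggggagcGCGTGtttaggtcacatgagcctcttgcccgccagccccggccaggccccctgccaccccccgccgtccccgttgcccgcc
Adm (chr7:110627407-110627656, plus strand): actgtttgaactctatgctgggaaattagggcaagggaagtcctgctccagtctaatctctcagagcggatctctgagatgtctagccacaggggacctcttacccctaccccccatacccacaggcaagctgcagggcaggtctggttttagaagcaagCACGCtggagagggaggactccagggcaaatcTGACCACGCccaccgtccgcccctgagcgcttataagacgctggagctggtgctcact
The Vegfa window shown held none of the 3 motifs, and that of another RefSeq start inside the gene held 1 ACGTG and 1 GCGTG. Vegfb held GCGTG at 2 places. Adm held GCGTG at 2 places, and TGACNNNGC at 1 place, as TGACCACGC from 58 to 50 bases before the start, overlapping a GCGTG on the other strand. The Fgf2 window, which lies within an annotated first exon and is not printed, held GCGTG once and TGACNNNGC once, on the opposite strand 144 to 136 bases before the start. The Flt1 window held GCGTG once, and of the 2 windows each of Pgf and Pdgfa, 1 held GCGTG and 1 held TGACNNNGC, which for Pgf was the same window. Of all 32851 RefSeq windows of this length, 28.2% held GCGTG, 16.6% ACGTG and 10.2% TGACNNNGC. A match is a description of the letters, and binding was not measured. Only these 250 bases were searched, so a window without a motif says nothing about sites farther from the start.

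Nrf2 deletion was checked by its gene. The FPKM of Nfe2l2 averaged 19.2 ± 2.66 over the 4 WT libraries and 13.6 ± 2.66 over the 4 cKO libraries (SD). The groups did not overlap, beside 4.34% of all genes (p = 0.0286 in an exact permutation test, two-sided, which can go no lower with 70 assignments). In the limma fits given next, the change was 0.709-fold, with an adjusted p of 0.453 without the replicate number as a block and 0.0219 with it. With the block Nfe2l2 did not pass without pair 1, 4 or 5. FPKM summed to between 410581 and 448130 per library. The number of fragments behind a value is not given in the sources used here.

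Values were compared as log2(FPKM + 0.5) with limma, adjusted over 12339 genes, with a threshold of 0.05. Without the replicate number as a block, 0 of the 7 genes passed, beside 0% of all genes, and 2 of the 7 (Vegfb and Fgf2) had an unadjusted p under 0.05, beside 10.6% of all genes. Samples of the same number deviated together, so the fit with the number as a block is given too. With it, Fgf2 rose and the other 6 did not pass, beside 10.6% of all genes called in either direction, 2.99% called higher and 7.59% called lower. Before adjustment, 4 of the 7 had a p under 0.05 with the block, all higher in cKO, beside 28.4% of all genes in either direction and 12.4% higher. In no member did the groups separate fully (0 of 7, beside 4.34% of all genes). The differences lay above 0 in 5 of 7 (50.7% of all genes), with a median of 0.42 on the log2 scale, where the median over all genes was 0.00. Vegfb, Pgf and Fgf2 were higher in cKO in each of the 4 pairs (3 of 7, beside 16.7% of all genes), and none was lower in each (19.5%).

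**Figure D1:**
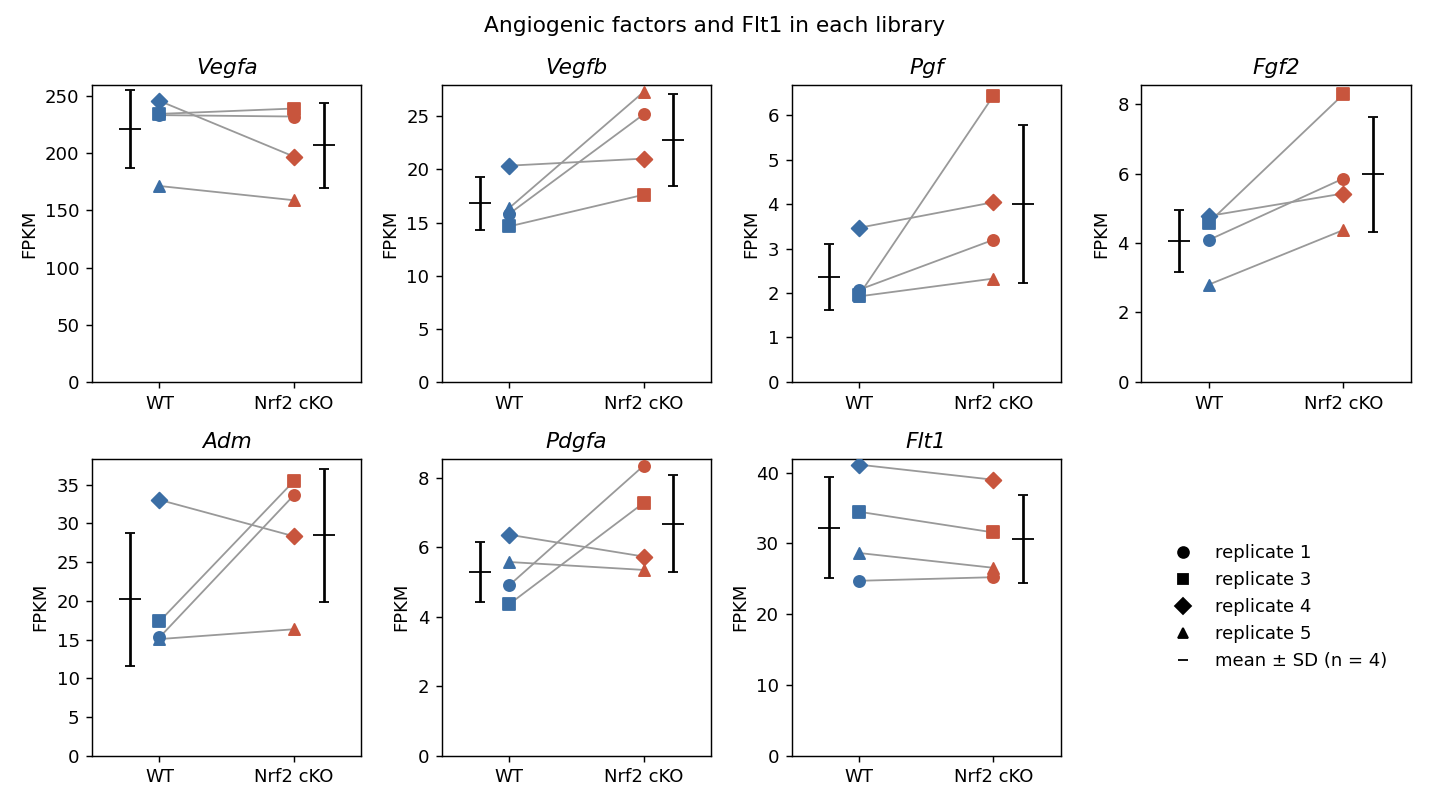
FPKM (y axis, from 0) of the 7 measured genes in each WT (blue) and Nrf2 cKO (red) library; lines join libraries of the same number, and black bars give the mean ± SD of 4 libraries. Fgf2, Vegfb and Pgf climb along each of the 4 lines, Adm and Pdgfa along the lines of some pairs only, and WT 4 (blue diamond) is the highest WT library in each panel.

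Among the VEGF family ligands, Vegfa (ENSMUSG00000023951; GRCm38 chr17:46016993-46032369, minus strand) was by far the most abundant. Its FPKM was 233 in WT 1, 234 in WT 3, 246 in WT 4 and 171 in WT 5. In cKO it was 232 in replicate 1, 239 in replicate 3, 197 in replicate 4 and 159 in replicate 5. The groups overlapped, replicate 5 was the lowest of each group, and the largest difference within a pair was in pair 4. The mean of Vegfa over the 8 libraries stood at the 98.1th percentile of all genes. The log2 difference was −0.10 (SE 0.16, 95% interval −0.46 to 0.25; limma adjusted p = 0.812 without the block and 0.407 with it). With the block the interval was −0.27 to 0.07, which leaves out rises above 0.07 and falls beyond 0.27 on the log2 scale. By pair, cKO differed from WT by −0.01, 0.03, −0.32 and −0.11 (pairs 1, 3, 4 and 5).

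Vegfb (ENSMUSG00000024962; GRCm38 chr19:6982473-6987651, minus strand) encodes VEGF-B, a ligand of FLT1 that does not bind KDR. It was at 15.8, 14.6, 20.3 and 16.4 FPKM in WT 1, 3, 4 and 5, and at 25.2, 17.6, 21.01 and 27.3 in the cKO libraries of the same numbers. The groups overlapped only through WT 4, which lay above cKO 3. The log2 difference of Vegfb was 0.42 (SE 0.15, 95% interval 0.08 to 0.76), 1.34-fold, and did not pass in limma (adjusted p = 0.453 without the block and 0.0624 with it). The pairs differed by 0.65, 0.26, 0.05 and 0.72. Without pair 4 the blocked value was 0.545 with an adjusted p of 0.0462, past the threshold, where 4.25% of all genes were called. It did not pass without pair 1, 3 or 5, with differences of 0.34, 0.47 and 0.32 (limma adjusted p = 0.211, 0.102 and 0.157).

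Pgf, the gene of PlGF (ENSMUSG00000004791; GRCm38 chr12:85166635-85177790, minus strand), was the lowest of the measured members. It was at 2.07, 1.95, 3.47 and 1.92 FPKM in WT 1, 3, 4 and 5, against 3.20, 6.44, 4.04 and 2.32 in cKO. WT 4 was well above the other WT libraries, and cKO 3 well above the other cKO libraries. The log2 difference of Pgf was 0.61 (SE 0.28, 95% interval −0.02 to 1.24; limma adjusted p = 0.476 without the block and 0.124 with it). Pair 3 alone differed by 1.501, and the other pairs by 0.52, 0.20 and 0.22. Without pair 3 the blocked difference was 0.31 (adjusted p = 0.319), so the size of the Pgf value rested on that pair.

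Of the summed FPKM of Vegfa, Vegfb and Pgf, Vegfa made up 91.9 ± 1.43% in WT against 88.2 ± 2.80% in cKO (SD over 4 libraries), with ranges of 90.4 to 93.4% and 84.3 to 90.9%. Vegfb made up 7.08 ± 1.27% and 10.1 ± 3.24%, and Pgf 0.976 ± 0.231% and 1.68 ± 0.581%. The ratio of Vegfa to Vegfb in FPKM was between 10.5 and 16.0 in WT and between 5.82 and 13.6 in cKO. These shares are given without a test, since each is a score over members.

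Among the other secreted factors, Fgf2 (ENSMUSG00000037225; GRCm38 chr3:37348346-37410108, plus strand) was the one gene past the threshold with the block. Fgf2 was at 4.09, 4.59, 4.78 and 2.80 FPKM in WT 1, 3, 4 and 5, and at 5.86, 8.28, 5.43 and 4.37 in cKO. cKO was higher in each pair, by 0.47, 0.79, 0.17 and 0.56 on the log2 scale, while cKO 5 lay below WT 3 and WT 4. The log2 difference was 0.50 (SE 0.21, limma adjusted p = 0.469) without the block, and with it the SE was 0.13, the 95% interval 0.20 to 0.79 and the adjusted p 0.0467. The call ended when any 1 pair was left out: the adjusted p became 0.140, 0.160, 0.0592 and 0.103 on omitting pair 1, 3, 4 or 5 in turn, with differences between 0.40 and 0.61. In those fits 3.26%, 4.91%, 4.25% and 6.65% of all genes passed. Fgf2 shares 640 exon bases with Nudt6 on the opposite strand. The strand setting of the counting is not given in the sources used here, so reads of these 2 genes may not have been told apart. On its own strand Fgf2 shares 255 exon bases with Gm43439, a processed transcript absent from the expression table, which no strand setting would separate. The FPKM of Nudt6 averaged 2.75 ± 0.659 and 2.74 ± 0.921 in WT and cKO.

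Adm (ENSMUSG00000030790; GRCm38 chr7:110627661-110629820, plus strand) differed more between libraries than between groups. It was at 15.3, 17.3, 33.0 and 15.1 FPKM in WT 1, 3, 4 and 5, and at 33.7, 35.5, 28.3 and 16.3 in cKO. WT 4 stood with the 3 high cKO libraries, and cKO 5 with the 3 low WT libraries. The log2 difference of Adm was 0.51 (SE 0.29, 95% interval −0.14 to 1.15; limma adjusted p = 0.516 without the block and 0.164 with it). Pairs 1 and 3 differed by 1.11 and 1.01, pair 5 by 0.11 and pair 4 by −0.22. Leaving out WT 4 moved the difference to 0.76 (adjusted p = 0.304), and leaving out cKO 3 to 0.38 (0.529). With the block it was 0.30 without pair 1, 0.34 without pair 3 and 0.75 without pair 4.

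Pdgfa (ENSMUSG00000025856; GRCm38 chr5:138976014-138997370, minus strand) showed the same split between pairs at a lower level. It was at 4.90, 4.36, 6.36 and 5.57 FPKM in WT 1, 3, 4 and 5, against 8.34, 7.27, 5.73 and 5.34 in cKO. The cKO libraries 1 and 3 lay above each WT library, and cKO 4 and 5 lay within the WT range. The log2 difference of Pdgfa was 0.30 (SE 0.17, 95% interval −0.08 to 0.67; limma adjusted p = 0.509 without the block and 0.285 with it), with pair differences of 0.71, 0.68, −0.14 and −0.06. The difference was 0.16 without pair 1 and 0.17 without pair 3 in the blocked fit, and 0.19 without cKO 1 in the other. An antisense gene, 6330403L08Rik, shares 813 exon bases with Pdgfa.

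**Figure D2:**
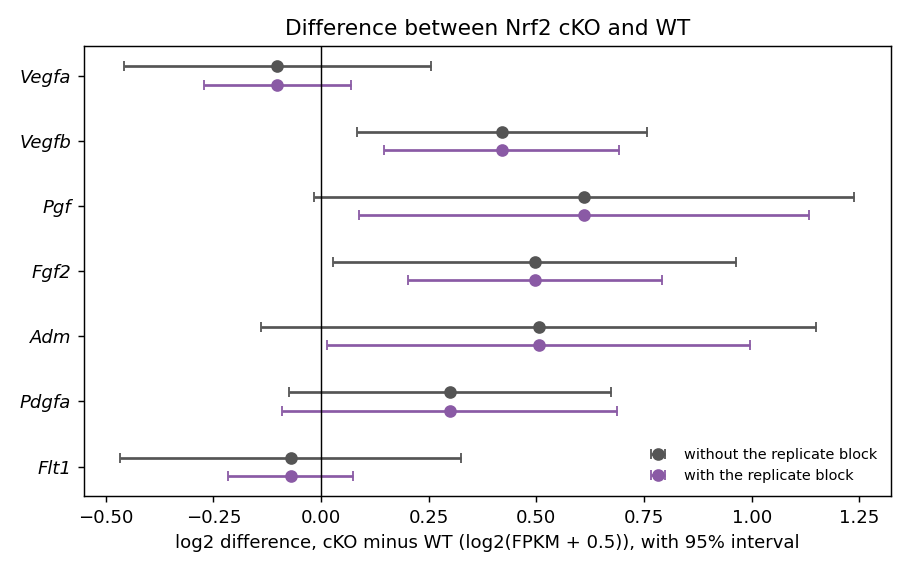
Log2 difference (x axis, cKO minus WT, on log2(FPKM + 0.5)) of each gene with its 95% interval, from the fit without (grey) and with (purple) the replicate block. The purple intervals of Vegfb, Pgf, Fgf2 and Adm lie above 0 before adjustment over all genes, and only that of Fgf2 passes after it; those of Vegfa, Pdgfa and Flt1 include 0.

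Flt1 (ENSMUSG00000029648; GRCm38 chr5:147561604-147726011, minus strand) was the one receptor among the members. It was at 24.7, 34.5, 41.1 and 28.7 FPKM in WT 1, 3, 4 and 5, and at 25.2, 31.6, 39.0 and 26.6 in cKO. Libraries of the same number were close to each other, with pair differences of 0.03, −0.13, −0.08 and −0.11, while the numbers differed among themselves. The log2 difference of Flt1 was −0.07 (95% interval −0.47 to 0.33; limma adjusted p = 0.888 without the block and 0.502 with it), and with the block the interval was −0.22 to 0.08. The FPKM of Vegfa was 7.05 ± 1.64 times that of Flt1 in WT and 6.95 ± 1.82 times in cKO.

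In WT the order of mean FPKM was Vegfa (221), Flt1 (32.2), Adm (20.2), Vegfb (16.8), Pdgfa (5.30), Fgf2 (4.06) and Pgf (2.35). Vegfa lay above Flt1, and Vegfb above Pdgfa, in all libraries of a group. The ranges of Flt1 and Adm, of Adm and Vegfb, of Pdgfa and Fgf2, and of Fgf2 and Pgf overlapped in WT as in cKO, so these neighbours were not ordered beyond their spread.

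Library WT 4 stood out across the members, and the libraries numbered 5 were often the lowest of their group. WT 4 had the highest FPKM of the 4 WT libraries for 7 of 7 members, where 27.6% of all genes were highest there. It was 2.16-fold above the median of the other WT libraries for Adm, 1.78-fold for Pgf, 1.44-fold for Flt1, 1.30-fold for Pdgfa, 1.29-fold for Vegfb, 1.17-fold for Fgf2 and 1.05-fold for Vegfa, and the median over all genes was 0.987-fold. Among the cKO libraries, cKO 3 was highest for 4 of 7 members (32% of all genes) and cKO 5 lowest for 5 of 7 (24%). WT 5 was the lowest WT library for 4 of 7 (24.6%). Without WT 4 the median member difference was 0.51 in place of 0.42, and 2 members, Vegfb and Pgf, no longer overlapped between the groups, beside 10.8% of all genes without WT 4.

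**Figure D3:**
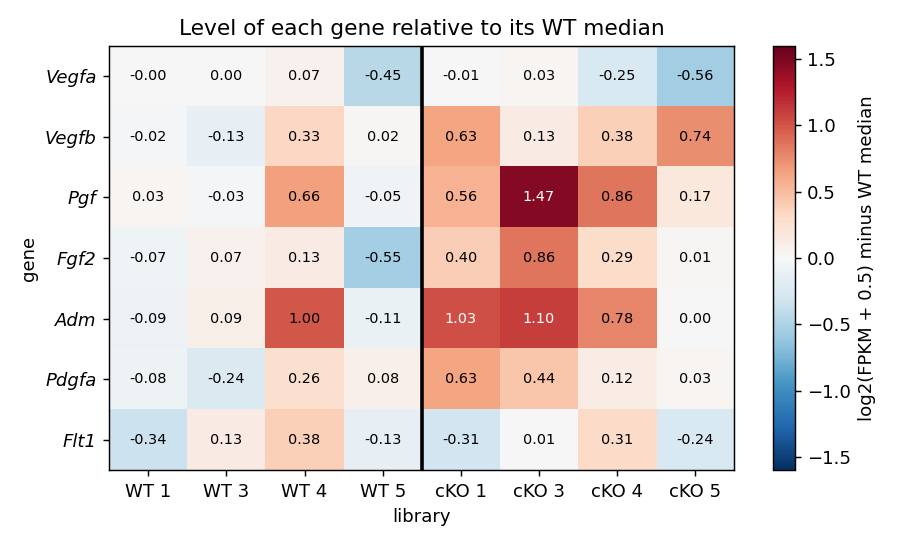
Level of each gene (rows) in each library (columns) as log2(FPKM + 0.5) minus the median of the 4 WT libraries; red is above and blue below that median, and the black line parts WT from cKO. Adm in WT 4 (0.9998) is close to that in cKO 1 (1.03), Pgf peaks in cKO 3 (1.47), and Vegfa is low in WT 5 (−0.45) and cKO 5 (−0.56).

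The receptors of these factors did not pass the test. Of 22 genes in the list, 13 were in the table, and 0 passed with the block in either direction (10.6% of all genes passed), with a median log2 difference of −0.07. Kdr, the main VEGF-A receptor, averaged 171 ± 35.3 FPKM in WT against 147 ± 22.6 in cKO, and was lower in cKO in each pair (−0.21; limma adjusted p = 0.0832 with the block). Its coreceptor Nrp1 was at 9.37 ± 0.958 and 8.27 ± 1.29 FPKM (−0.18, adjusted p = 0.323). Ramp3, which makes CALCRL an adrenomedullin receptor, was at 4.44 ± 0.612 and 5.90 ± 1.16 FPKM (0.37, adjusted p = 0.0724 with the block). Pdgfrb, the PDGF receptor of pericytes, was at 6.95 ± 2.06 and 5.65 ± 0.999 FPKM (−0.25, adjusted p = 0.183), and Fgfr1, a receptor of FGF2, at 31.2 ± 6.55 and 34.6 ± 4.19 (0.16, adjusted p = 0.192).

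Among 34 other secreted angiogenic factors, 18 were measured. Of these 13 had a difference above 0 (50.7% of all genes), and 0 passed with the block (10.6% of all genes), with a median of 0.13. The smallest p were those of Igf1 (0.31, limma adjusted p = 0.0602 with the block), an insulin-like growth factor, and Ccn2 (0.37, 0.0671), a matricellular protein formerly called Ctgf. Tgfa, a ligand of the EGF receptor, differed by 0.47 (0.120), and the chemokine Cxcl12 by 0.38 (0.145). Angpt2 and Angptl4 were not in the table.

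Of 19 genes listed here as secreted inhibitors of vessel growth, 14 were measured. Whether each of them, Slit2 included, limits vessels in this retina was not tested. With the number as a block, 1 rose and 2 fell, while 11 missed the threshold (median −0.04), beside 2.99% of all genes called higher and 7.59% called lower. Timp1, an inhibitor of matrix metalloproteinases, rose from 1.35 ± 1.39 to 7.93 ± 10.3 FPKM (1.74, limma adjusted p = 0.0479 with the block), with 23.3 FPKM in cKO 3 and at most 4.78 in the other cKO libraries. Col18a1, whose collagen chain yields endostatin, fell from 15.2 ± 2.13 to 12.2 ± 1.59 (−0.30, adjusted p = 0.0399), and Slit2, a guidance ligand, from 48.0 ± 13.9 to 34.4 ± 7.90 (−0.46, adjusted p = 0.00888). With 1 pair left out, Slit2 passed each time. Col18a1 did not pass without pair 1, 3, 4 or 5 (adjusted p = 0.121, 0.140, 0.0846 and 0.0908), nor Timp1 without pair 1, 3 or 5 (0.127, 0.0617 and 0.0934), and the Timp1 difference was 1.08 without pair 3. Sema3f differed by −0.28 (0.0810 with the block) and Serpinf1, the gene of PEDF, by 0.04 (0.892). Thbs1 was not in the table.

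Hypoxia response genes, the set to which Vegfa and Adm are usually assigned, were measured for 19 of 20. In the blocked fit 7 passed as higher and 0 as lower, beside 2.99% of all genes called higher and 7.59% called lower. The other 12 missed the threshold, and the median was 0.27. The 4 with the smallest p were Hk2 of glycolysis, the oxygen sensor Egln1, the lactate carrier Slc16a3 and the mitophagy receptor Bnip3, with log2 differences of 0.61, 0.42, 0.44 and 0.44 (limma adjusted p = 0.0141, 0.0141, 0.0171 and 0.0258 with the block). In these 4 of the 19 genes the cKO values lay above all WT values (4.34% of all genes did not overlap in either direction), and the groups overlapped in the other 15, as in Vegfa and Adm. With 1 pair left out, Hk2 passed each time, Slc16a3 missed the threshold without pair 1 (adjusted p = 0.0692), Egln1 without pair 1 or 3 (0.0605 and 0.0571), and Bnip3 without pair 1, 3 or 5 (0.0947, 0.0900 and 0.0825). The list was known to be higher from earlier results of these data.

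**Figure D4:**
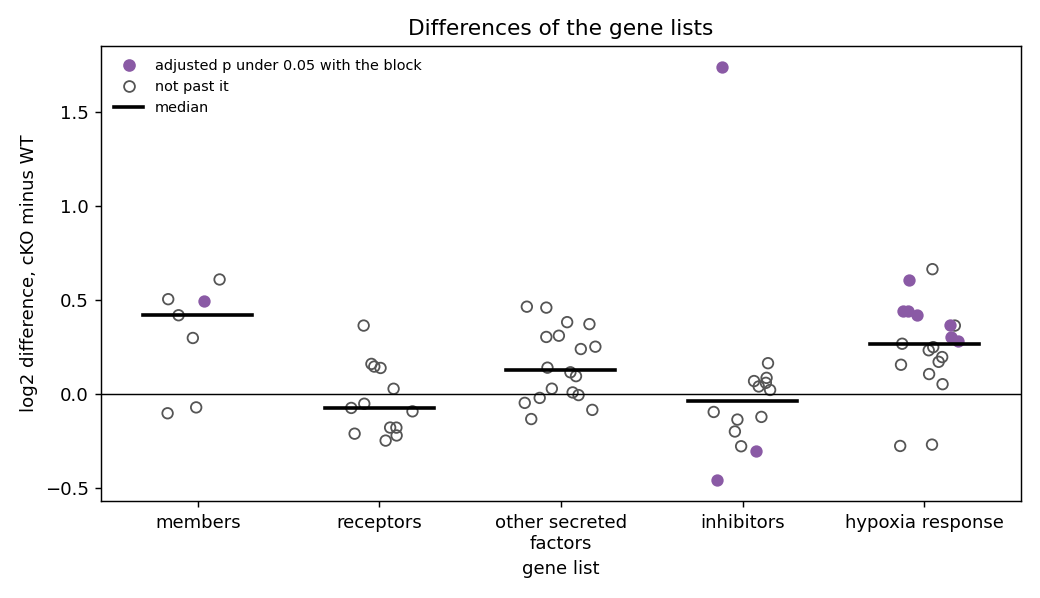
Log2 difference (y axis, cKO minus WT) of each measured gene in the list of members and in the 4 other lists (x axis); filled purple points passed with the block, open points did not, and black lines are medians. The median of the members is 0.42 and that of their receptors −0.07, and the highest point among the inhibitors is Timp1 (1.74).

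Marker genes of retinal cell types were looked at in the pull-down, and which cells their RNA came from was not tested. All 12 Müller cell markers were measured and summed to between 7325 and 11834 FPKM in WT and between 7420 and 10404 in cKO. Of these, Aqp4 (−0.35) and Abca8a (−0.36) fell with the block, beside 7.59% of all genes called lower, and the other 10 did not pass. Of 17 endothelial markers 3 were in the table, Kdr, Esam and Egfl7, and Pecam1, Cdh5, Tie1 and Cldn5 were not. Their sum was between 160 and 227 FPKM in WT and between 142 and 195 in cKO, most of it Kdr, which is known from retinal neurons and glia too. Of 7 astrocyte markers 5 were measured, and their sum was between 146 and 311 FPKM in WT, with WT 4 the highest, and between 269 and 413 in cKO. Most of that difference was Gfap (91.7 ± 51.8 FPKM in WT against 218 ± 68.0; log2 difference 1.35, limma adjusted p = 0.00521 with the block), which was at 166 FPKM in WT 4. S100b rose too with the block (0.44), beside 2.99% of all genes called higher. Aldh1l1 (0.10), Pdgfra (0.15) and Agt (−0.19) did not pass. Whether the Gfap and S100b RNA came from astrocytes or from the Müller cells themselves cannot be told apart here. Of 11 pericyte markers 3 were measured, with sums of 68.3 to 107 FPKM in WT and 103 to 116 in cKO. Rgs5 rose with the block (28.0 ± 2.25 FPKM in WT against 47.9 ± 5.52, limma adjusted p = 0.00277), beside 2.99% of all genes called higher. Pdgfrb (−0.25) and Vtn (−0.03) did not pass. The 7 bipolar cell markers summed to between 1392 and 1736 FPKM in WT and to between 1749 and 2158 in cKO, with no overlap. Pcp2 (0.51), Cabp5 (0.33) and Vsx1 (0.54) rose with the block, beside 2.99% of all genes called higher. Pcp2 averaged 742 ± 110 FPKM in WT against 1053 ± 125, and was the only 1 of the 7 without overlap (4.34% of all genes). Prkca (0.21), Isl1 (0.21), Grm6 (0.03) and Trpm1 (−0.03) did not pass. The 6 amacrine cell markers summed to 38.9 to 60.6 FPKM in WT and 26.8 to 40.8 in cKO, and all 6 were lower in each pair (19.5% of all genes). With the block Gad1 (−0.46), Tfap2a (−0.67) and Tfap2b (−0.63) fell, beside 7.59% of all genes called lower, and the other 3 did not pass. The 5 measured ganglion cell markers summed to 62.4 to 83.7 FPKM in WT and 44.8 to 64.8 in cKO. Of these Sncg (−0.65), Nefl (−0.54) and Nefm (−0.61) fell with the block, beside 7.59% of all genes called lower. Rbpms (0.12) and Thy1 (−0.24) did not pass. The 8 rod markers summed to between 2676 and 4352 FPKM in WT and between 2944 and 4344 in cKO. With 1 pair left out, Gfap, Rgs5, Pcp2, Vsx1, Nefl and Nefm passed each time. Tfap2b missed the threshold without pair 1, and Tfap2a without each pair. Aqp4, Abca8a and Gad1 passed only without pair 5, and S100b, Cabp5 and Sncg only without pair 3. The part of the marker genes in the values of the members was not tested. All 8 samples were pull-downs, so the number of cells, the RNA per cell and the RNA carried over into each pull-down cannot be told apart.

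The genes whose log2 values over the 8 libraries were most like those of Vegfa were Gm17066 (Pearson r = 0.958, Spearman rho = 0.929), Tnc (0.955 and 0.738) and Thop1 (0.955 and 0.976). Those most like Fgf2 were Vgll4 (r = 0.957, rho = 0.952), Gpr137b-ps (0.951 and 0.833) and Arrdc3 (0.936 and 0.905). These are the highest of all genes and are given as a description. Without the 2 libraries farthest from the median, r was between 0.865 and 0.956 for Vegfa (without WT 5 and cKO 5) and between 0.695 and 0.855 for Fgf2 (without WT 5 and cKO 3).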

How the data were processed

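RNA-seq of Müller cell ribosome pull-downs from 8 retina samples was used. Per the labels' protocols, RNA was extracted with an RNeasy Micro kit, and poly(A) RNA was made into directional libraries with NEBNext kits. The authors deposited 1 table of FPKM. STAR, edgeR, GRCm38 and mm10 are listed without version or role, per the submitters' processing notes. The counting tool, annotation, strand setting and gene filter are not given in the sources used here. The deposited table gives no fragment numbers, so the depth is unknown and no counting interval was computed.

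Values were used as log2(FPKM + 0.5), which understates the change of low genes such as Pgf, without further scaling. The comparison of cKO and WT used limma 3.58.1 under R 4.3.3 (eBayes with a trend, two-sided, Benjamini-Hochberg over 12339 genes), leaving 6 residual degrees of freedom, or 3 with the replicate number as a block. The numbers come from the sample titles. With group means removed, WT and cKO libraries correlated across genes at 0.261 to 0.591 where the number was shared. The range was −0.479 to 0.211 where it was not. A value over 0.1 in each same-numbered pair was taken as pairing. WT 1 with cKO 3 (0.180) and WT 5 with cKO 4 (0.211) were over 0.1 too. The script was tested on simulated data with planted changes larger than the group difference of any member. That test therefore does not cover changes of the size seen in the members. Of 12339 gene IDs, 12327 were found in GENCODE M21 (GRCm38). Positions and overlaps came from it, and promoters from RefSeq on GRCm38.p6, which held all 7 measured members. Ccn1, Ccn2 and Ero1a were matched by older symbols.

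The members and lists were chosen with earlier results of these data known. Named were all members, Nfe2l2, the 4 genes of each list with the smallest p with the block, Kdr, Nrp1, Angpt2, Angptl4, Thbs1 and Serpinf1, and the 3 genes most like Vegfa and Fgf2. Nudt6 and the marker genes named were added after their values were seen. Other settings tried were a pseudocount of 0.1 or 1, a minimum mean FPKM of 5, TPM, median-of-ratios or quantile scaling, the block, library weights, and leaving out each library or pair.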

Additional observations from a re-analysis of the deposited data

Results flagged for a closer look

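In 3 cases values stood far from the other libraries of their group, by a test of the gap to the nearest library over the range of the 4, which chance meets in about 1 of 20 groups; 14 groups were looked at. Adm was at 33.0 FPKM in WT 4, where the other WT libraries were at 15.1 to 17.3. Pgf was at 3.47 FPKM in WT 4, against 1.92 to 2.07 in the others. Vegfa was at 171 FPKM in WT 5, against 233 to 246. WT 4 also had the highest sums of Müller cell and astrocyte markers in WT, at 11834 and 311 FPKM. The same held for endothelial (227 FPKM) and ganglion cell markers (83.7) and for the 1 measured microglia marker (11.7). It held too for pigment epithelium markers (1800), which share Rlbp1 with the Müller cell markers. Gfap alone gave 166 FPKM of that astrocyte sum. The rod and bipolar cell sums were lowest in WT 4 among the WT libraries, at 2676 and 1392 FPKM. Pericyte and amacrine cell sums were neither highest nor lowest there. The part of the marker genes in the flagged values was not tested.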

How the results depend on the processing

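Without the block, 0 genes passed in limma under each pseudocount, filter and scaling and without any 1 library. With all 8 libraries and the settings of the report, 1310 genes had an unadjusted p under 0.05. Library weights gave 1 gene, none of them a member. The replicate block gave 1305 genes and 1 member (Fgf2), and with the replicate block but without pair 1, 3, 4 or 5 there were 402, 606, 524 and 821 genes and 0 to 1 members, the one being Vegfb without pair 4; the cause was not tested. The block also brought Nfe2l2 past the threshold (adjusted p = 0.0219, but 0.0785, 0.0846 and 0.0634 without pair 1, 4 or 5), and Slit2, Col18a1, Timp1 and the 4 named hypoxia genes. The median member difference stayed above 0, between 0.30 and 0.55. It was 0.36 with a minimum mean of 5, which left out Pgf. Members without overlap numbered 0 to 2 when 1 library was left out. The exact p of Nfe2l2 was 0.0286 to 0.0571 then, 0.0571 without any 1 WT library. Of 635 values of named genes under other settings, 594 kept direction and side, 28 newly passed and 13 changed sign, none of the latter past the threshold. Leaving out 1 library moved Vegfa between −0.22 and 0.019 (without cKO 5), Flt1 between −0.19 and 0.054 (without WT 4; 0.014 without cKO 1), Serpinf1 between −0.18 and 0.25, Gm17066 between −0.22 and 0.0048 and Tnc between −0.24 and 0.032. Serpinf1 was at −0.13 with library weights, and with the replicate block at −0.050 without pair 3 and −0.077 without pair 4. Tnc was at 0.0029 with quantile scaling, and Thop1 at 0.027 with the block and without pair 4. The depth behind a value is unknown, which limits Pgf and Fgf2, the lowest members, most.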
